A study of Mus musculus with 6 samples.

Results

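Hedgehog signalling is described here through 9 genes that carry its receptors, coreceptors, effectors and feedback proteins: Ptch1, Smo, Gli1, Gli2, Gli3, Hhip, Gas1, Boc and Cdon. They were chosen by name, by a rule that uses no measured value, but with earlier results of these data known. Each was found among the 54752 gene IDs of the count table. All 9 passed the filter on low counts, which left 17128 genes for testing. The cells were mouse embryonic fibroblasts (MEFs), fibroblasts grown from dissected mouse embryos, of a line described as p53-deleted. That deletion is shared by all 6 libraries. The 3 control libraries (shNT) came from cells infected with lentivirus carrying a negative control short hairpin RNA, and their genotype is given as WT. The 3 shARF libraries came from cells infected with lentivirus carrying a p19ARF hairpin, with the genotype given as ARF knockdown. All titles carry the tag neo. The replicates are called biological, with no word on separate infections, cultures or embryos. A p-value here therefore reflects only how far these libraries scatter, which may be technical. Neither embryo age nor hairpin promoter is stated.

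A Hedgehog ligand (SHH, IHH or DHH) binds Patched, which otherwise holds the membrane protein Smoothened inactive at the primary cilium. Active Smoothened changes the GLI transcription factors: GLI2 and GLI3 are processed into repressors when the pathway is off and act as activators when it is on, and GLI1 acts only as an activator. GAS1, BOC and CDON are coreceptors that present the ligand to Patched, while HHIP is a decoy that binds and sequesters it. Ptch1, Hhip and Gli1 are themselves transcribed in response to the signal and are commonly read as its output, and in the embryo Gas1, Boc and Cdon are known to be repressed by it.

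Sequence upstream of the RefSeq start was available for 7 of the 9 genes (build GRCm38.p6, the 250 bases before the start, 5′ to 3′). Those of Ptch1, Hhip and Gas1 are shown because these genes fell by at least 2-fold. CpG dinucleotides are in capitals. They are chr13:63565736-63565985 (Ptch1, minus strand), chr8:80058009-80058258 (Hhip, minus strand) and chr13:60177536-60177785 (Gas1, minus strand).
Ptch1: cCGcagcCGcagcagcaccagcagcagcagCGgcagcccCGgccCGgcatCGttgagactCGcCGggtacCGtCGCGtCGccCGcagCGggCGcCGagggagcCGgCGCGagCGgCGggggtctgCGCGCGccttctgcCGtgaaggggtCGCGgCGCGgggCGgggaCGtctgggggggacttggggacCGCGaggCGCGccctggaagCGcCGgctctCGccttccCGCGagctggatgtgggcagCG
Hhip: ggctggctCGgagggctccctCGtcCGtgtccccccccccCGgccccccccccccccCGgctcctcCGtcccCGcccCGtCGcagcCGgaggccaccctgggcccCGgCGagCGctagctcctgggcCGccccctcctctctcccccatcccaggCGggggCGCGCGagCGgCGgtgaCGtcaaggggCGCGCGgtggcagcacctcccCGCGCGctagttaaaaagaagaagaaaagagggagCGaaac
Gas1: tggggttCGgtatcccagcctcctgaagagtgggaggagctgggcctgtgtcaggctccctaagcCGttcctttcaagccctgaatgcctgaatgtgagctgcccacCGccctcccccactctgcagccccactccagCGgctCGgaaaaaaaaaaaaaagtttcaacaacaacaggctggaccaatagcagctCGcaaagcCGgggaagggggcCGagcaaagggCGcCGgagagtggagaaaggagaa

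The Ptch1 window held 41 CpG dinucleotides and the Hhip window 28, more than 98.9% and 92.4% of the 32851 such windows in the mouse table, while the Gas1 window held 10 against a median of 6 over all windows. The Ptch1, Cdon and Gli3 windows precede RefSeq starts that lie inside the gene as GENCODE annotates it, so they are not the sequence before the outermost start. Among members that were not called, the Gli3 window held 34, the Gli2 window 22 and the Smo window 15. The 9-letter GLI consensus GACCACCCA, searched on both strands with no mismatch allowed and without counting overlap with other motifs, was in 0 of the 7 member windows and in 0.225% of all windows. That says only that these letters are not in these 250 bases. Cdon, whose window held 1 CpG, was the other member with a window, and Gli1 and Boc were not matched.

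Total counts were 40261944 to 47023082 per library. Levels are given as CPM, counts per 1 M counts of the library after TMM scaling. Cdkn2a, the gene of the hairpin's target p19ARF, was at 231, 218 and 223 CPM in shNT and 95.6, 103 and 107 CPM in shARF (-1.14 on the log2 scale, SE 0.05, edgeR adjusted p = 2.52e-06). By exact permutation, two-sided, p was 0.1, and no smaller value is possible with 3 libraries a group. Counts are per gene, so the change of the p19ARF transcript apart from other transcripts of Cdkn2a was not measured. The libraries of the 2 groups also differed in genes that mark sex and body position. For the counts in this paragraph, 28.8% of all genes tested were called higher and 27.7% lower (edgeR, adjusted p under 0.05). Xist fell and all 4 Y-linked genes listed rose, and 7 of 8 limb-expressed HoxA and HoxD genes rose with 0 lower. Xist was at 387 CPM in shNT and still at 45.7 CPM in shARF. Kdm5d, Ddx3y, Eif2s3y and Uty of the Y chromosome were at 0.782, 24.4, 12.8 and 9.61 CPM in shNT. In shARF they were at 19.5, 85.3, 38.3 and 21.7 CPM, so both groups held reads of Xist and of Y-linked genes. Fibroblast markers summed to 16852 to 18302 CPM in shNT and 20152 to 20274 CPM in shARF, with 5 of 10 higher and 3 lower. Among these, Pdgfra fell (log2 fold change -2.46), as did Dcn (-2.12). Of 8 mesothelial markers 6 were higher and 2 lower. Their sum was 114 to 117 CPM in shNT and 118 to 121 CPM in shARF, which hides larger changes of single genes. Msln fell from a mean of 84.2 to 54.4 CPM and Bnc1 from 30.5 to 19.4 CPM. Upk1b, Lrrn4 and Muc16 had no count in shNT and stood at 9.58, 8.91 and 3.35 CPM in shARF. Upk3b rose from 0.0137 to 12 CPM, Wt1 from 0.102 to 9.54 CPM and Krt7 from 1.21 to 2.36 CPM. Cartilage and bone markers summed to 347 to 361 CPM in shNT and 166 to 184 CPM in shARF, with 4 of 6 tested lower and 0 higher. Epithelial markers summed to 36.8 to 39.7 and 34.4 to 35.9 CPM (3 of 6 tested higher, 1 lower), and neural markers to 27 to 29.9 and 36.7 to 41.9 CPM (1 of 2 higher). Endothelial markers summed to 3.12 to 3.43 and 2.99 to 3.8 CPM (1 of 3 higher, 2 lower), and blood cell markers to 6.73 to 7.47 and 1.52 to 2.03 CPM (2 of 2 lower). Skeletal muscle markers summed to 0.123 to 0.316 and 0.424 to 0.649 CPM (1 of 1 higher). The defining genes Sox10 (neural), Cdh5 (endothelial), Cd3e (T cells) and Myod1 (muscle) had no count in any library. Other genes of these lists did have counts and were called. Tubb3 (neural) rose from 27.6 to 38.9 CPM and Kdr (endothelial) from 0.282 to 3.13 CPM. Tek (endothelial) fell from 2.16 to 0.067 CPM and Csf1r (blood) from 4.49 to 0.338 CPM. Within the epithelial sum, Krt18 fell from 12.7 to 0.15 CPM and Krt14 rose from 0 to 1.91 CPM. All results below move with these differences, and the hairpin and the origin of the cultures cannot be told apart in these 6 libraries. In bulk RNA, fewer cells of a type and less RNA per cell cannot be told apart either.

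Between shARF and shNT, Ptch1, Hhip, Gas1 and Cdon were lower in shARF and Boc was higher, while Smo, Gli1, Gli2 and Gli3 did not pass the test. In all, 4 of the 9 members were called lower, where 27.7% of all genes tested were, and 1 was called higher, where 28.8% were. In either direction 5 of 9 were called beside 56.4% of all genes, which is near the background, so the count itself is not a result about the pathway. The libraries of the groups were apart for 5 of 9 members and for 64.6% of all genes. A fall of 2-fold or more was measured for 3 members (7.78% of all genes) and such a rise for 1 (6.59%). The median log2 fold change over the 9 was -0.45, against -0.01 over all genes.

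**Figure D1:**
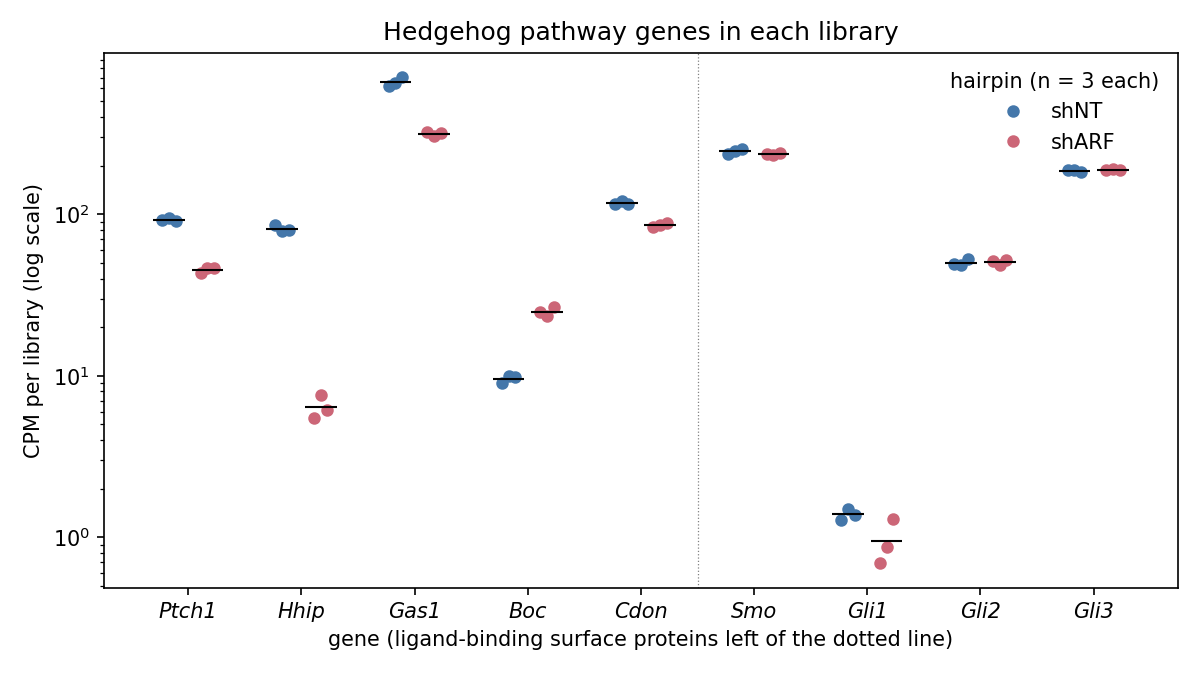
CPM of the 9 Hedgehog genes in each library on a log scale, with 3 points per group (shNT blue, shARF red) and a black line at each mean. The groups do not overlap for Ptch1, Hhip, Gas1, Boc and Cdon, and they do for Smo, Gli1, Gli2 and Gli3.

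Hhip, the secreted and membrane-tethered decoy for Hedgehog ligands, changed most among the 9. Its levels were 86, 79.2 and 79.3 CPM in shNT against 5.49, 7.62 and 6.13 CPM in shARF. The lowest control library was thus far above the highest knockdown library, which still held 334 reads of the gene. Group means were 81.5 ± 3.93 and 6.41 ± 1.09 CPM (SD, n = 3 each), which left 7.87% of the control level. The log2 fold change was -3.67 (SE 0.12, 95% confidence interval -3.96 to -3.38, adjusted p = 1.16e-06, edgeR). A lower value was found for 0.998% of the genes tested. The gene lies on chromosome 8 (GRCm38, 79965851 to 80058006, minus strand), where the 895 tested genes had a median of -0.27 and the 128 in the same 10 Mb a median of -0.34. With fold changes centred on that window, the change was -3.33.

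Ptch1, the Patched receptor that both receives the ligand and restrains Smoothened, fell to about the same relative level as Cdkn2a counted over the whole gene. It was at 92.6, 94.1 and 91 CPM in shNT and at 43.1, 46.7 and 46.2 CPM in shARF. The groups were apart, and the spread within each was small beside the difference. On average it stood at 92.6 ± 1.54 and 45.3 ± 1.95 CPM (SD, n = 3 each), or 49% of the control level. The log2 fold change was -1.03 (SE 0.04, 95% confidence interval -1.13 to -0.93, adjusted p = 2.54e-06, edgeR). Gli1, like Ptch1 and Hhip an output gene of the pathway, is described with the GLI factors.

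Gas1, a membrane-anchored coreceptor first described as a growth arrest gene, had the highest level per kb of exon of the 9 in both groups. The shNT libraries were at 620, 645 and 703 CPM and the shARF libraries at 321, 305 and 316 CPM. The groups did not overlap. Means were 656 ± 42.4 and 314 ± 8.17 CPM (SD, n = 3 each), and the log2 fold change was -1.06 (SE 0.05, 95% confidence interval -1.18 to -0.95, adjusted p = 4e-06, edgeR). Reads of Gm48488, which overlaps Gas1 on the opposite strand, came to 0.109% of those of Gas1.

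Boc and Cdon encode related immunoglobulin and fibronectin repeat coreceptors, and they moved in opposite directions. Boc was at 9.03, 9.92 and 9.89 CPM in shNT and at 24.9, 23.3 and 26.6 CPM in shARF. It was the sole member higher in shARF (means 9.61 ± 0.501 and 24.9 ± 1.61 CPM, SD, n = 3 each), with a log2 fold change of 1.37 (SE 0.07, 95% confidence interval 1.21 to 1.54, adjusted p = 6.82e-06, edgeR). Cdon was at 116, 120 and 116 CPM in shNT and at 83.7, 85.3 and 88.2 CPM in shARF. The groups were apart for this gene as well, and the change was the smallest of the 5 called (log2 fold change -0.45, SE 0.03, 95% confidence interval -0.53 to -0.38, adjusted p = 3.41e-05, edgeR).

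The make-up of the coreceptor transcripts therefore shifted. Divided by the length of all annotated exons and summed over the 3 genes, Gas1 made up 92.5, 92.4 and 93.2% in shNT and 86.8, 86.3 and 86% in shARF. The Boc share was 0.896, 0.946 and 0.873% in shNT and 4.48, 4.4 and 4.81% in shARF, and the Cdon share went from a mean of 6.39 ± 0.435% to 9.06 ± 0.319% (SD, n = 3 each). Cdon thus took a larger share of a smaller sum, although its own level was lower. Each of the 3 shares was apart between the groups, with p = 0.1 for each by exact permutation (two-sided), which is the lower limit of this design. Gas1 remained the main coreceptor transcript in every library.

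**Figure D2:**
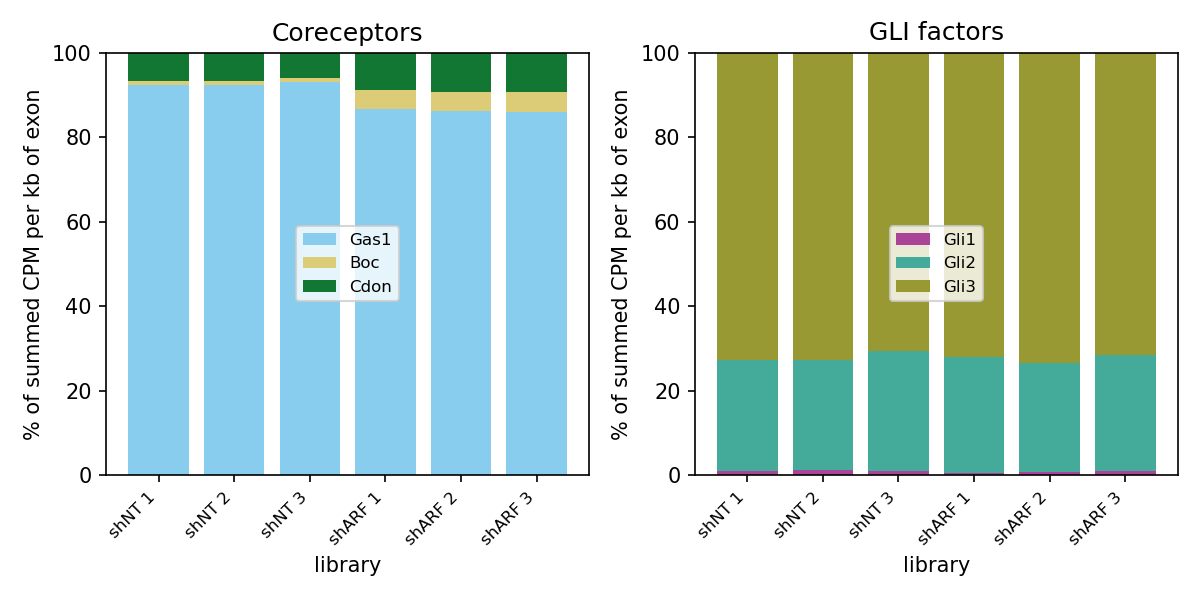
Share of each gene in the summed CPM per kb of exon in each of the 6 libraries, for the coreceptors Gas1, Boc and Cdon (left) and the factors Gli1, Gli2 and Gli3 (right), in percent. Boc and Cdon fill more of the bar in shARF, with Gas1 at 86 to 86.8% against 92.4 to 93.2%, while the Gli2 and Gli3 shares overlap between the groups.

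Smo, the transducer that Patched restrains, was at 237, 246 and 254 CPM in shNT and at 236, 234 and 238 CPM in shARF. The groups overlapped, and the 95% confidence interval of the log2 fold change (-0.05) ran from -0.12 to 0.01 (adjusted p = 0.155, edgeR). A fold as large as that of Ptch1 thus lies outside it. Smo was called lower under 5 alternatives, with values of -0.08 to -0.14 there and adjusted p of 0.00306 to 0.327 over all alternatives. One of these left out shNT replicate 1 (-0.08, adjusted p = 0.023). The ratio of Smo to Ptch1 per kb of exon was 6.45, 6.59 and 7.03 in shNT and 13.8, 12.7 and 13 in shARF.

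Gli2 and Gli3, which carry most of the primary response to Smoothened, were near equal between the groups. Gli3, the main repressor, was at 189, 187 and 183 CPM in shNT and at 187, 190 and 187 CPM in shARF, with a log2 fold change of 0.01 (95% confidence interval -0.04 to 0.06, adjusted p = 0.72, edgeR). With library sizes alone as the scaling, or with values centred on the 10 Mb window, Gli3 was called lower at -0.08 and -0.1 (adjusted p = 0.0312 and 0.00836, within 0.00836 to 0.983 over the alternatives). Gli2 was at 49.4, 48.2 and 52.5 CPM in shNT and at 51.4, 48.2 and 51.9 CPM in shARF (0.01, 95% confidence interval -0.11 to 0.13, adjusted p = 0.832). Neither interval reaches a change of 2-fold.

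Gli1, the activator whose transcription follows the signal, had the lowest level of the 9 in both groups, per kb of exon. It was at 1.28, 1.5 and 1.38 CPM in shNT, from 57 to 73 reads a library. In shARF it was at 0.692, 0.867 and 1.3 CPM, from 31 to 58 reads. The groups overlapped through shARF replicate 3 alone, and the means of 1.39 ± 0.109 and 0.952 ± 0.312 CPM (SD, n = 3 each) did not pass the test (log2 fold change -0.54, SE 0.25, 95% confidence interval -1.13 to 0.04, adjusted p = 0.102, edgeR). The interval includes both no change and a fall as large as that of Ptch1, so these libraries do not show whether Gli1 moved with it. Without shARF replicate 3 the fall of Gli1 was called (-0.83, adjusted p = 0.0163, within 0.0163 to 0.332 over the alternatives). With values centred on the 10 Mb window it was -0.31, since the 109 tested genes there had a median of -0.24.

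Per kb of exon, Gli3 made up 72.6, 72.8 and 70.7% of the summed GLI transcripts in shNT and 71.9, 73.3 and 71.4% in shARF. The Gli2 share was 26.1 to 28.3% in shNT and 26 to 27.6% in shARF. These shares overlapped (exact two-sided permutation p = 0.9 for Gli3 and p = 1 for Gli2). The Gli1 share was 0.943 to 1.12% in shNT and 0.51 to 0.95% in shARF, which also overlap (exact permutation p = 0.2).

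**Figure D3:**
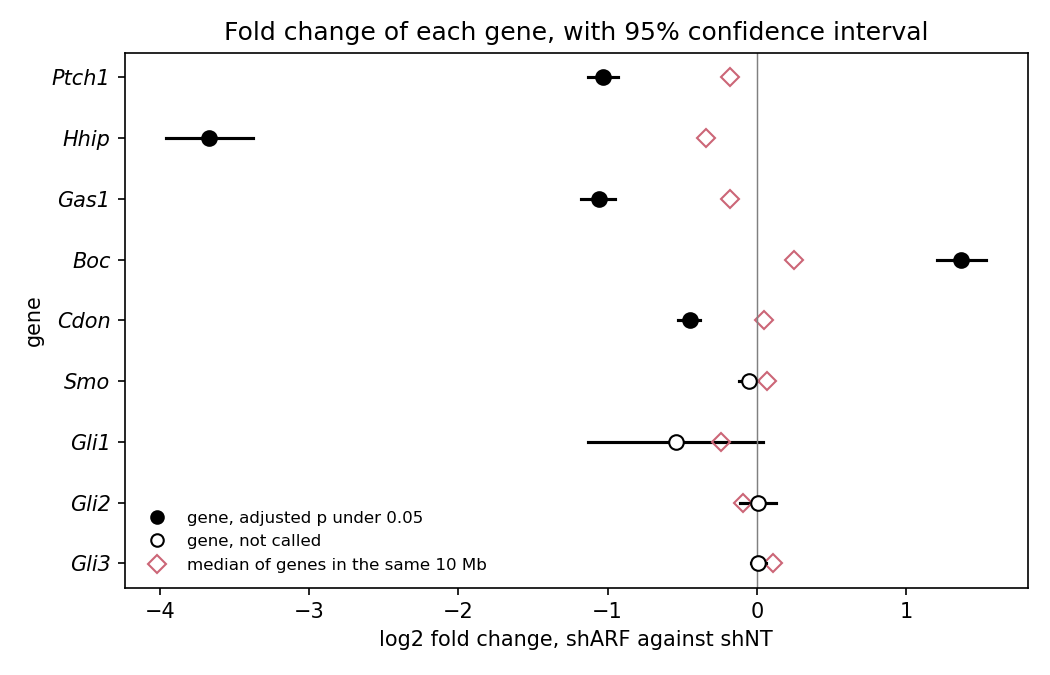
Log2 fold change of shARF against shNT for the 9 genes, with 95% confidence intervals as bars, filled points for adjusted p under 0.05 and open points otherwise. Open diamonds give the median of the tested genes in the same 10 Mb, which lies between -0.34 and 0.25 and is nearer to 0 than each of the 5 called genes.

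On a scale of CPM per kb of all annotated exons, the levels in shNT fell from Gas1 (221 ± 14.3) and Smo (43.6 ± 1.52) through Gli3 (19.5 ± 0.318), Cdon (15.2 ± 0.337), Hhip (8.98 ± 0.433), Gli2 (7.28 ± 0.327), Ptch1 (6.53 ± 0.108) and Boc (2.16 ± 0.113) to Gli1 (0.278 ± 0.0218; SD, n = 3 each). The first 4 places and the last were the same in shARF, whereas Gli2, Boc, Ptch1 and Hhip followed in that order, at 7.36 ± 0.29, 5.6 ± 0.362, 3.2 ± 0.137 and 0.707 ± 0.12 CPM per kb. No neighbours in either order had overlapping libraries. The place of Ptch1 depends on the length used, because its annotated exons add up to 14.18 kb while its longest coding transcript has 7.72 kb. With the latter, Ptch1 stood above Hhip and Gli2 in shNT and above Boc in shARF, a choice of length made after seeing the data.

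Ptch1 and Gas1 lie on chromosome 13, at 63508328 to 63573598 and 60174405 to 60177365 (both minus strand), so 3.33 Mb apart. Their fold changes differed by less than the width of either interval. The 33 tested genes between them had a median log2 fold change of -0.46, with 13 lower and 2 higher, and 7 of them were lower by at least 2-fold. Over the 96 tested genes of the 10 Mb window that holds both, the median was -0.18 and 14 fell by at least 2-fold. Gli3 lies on the same chromosome at 15463235 to 15730026 (plus strand), in a window with a median of 0.11. Centred on the median of their own window (-0.18), the changes of Ptch1 and Gas1 were -0.85 and -0.88, and both were called. The part of the neighbourhood in their fall was not tested. Boc (chromosome 16, 44485049 to 44558897, minus strand) and Cdon (chromosome 9, 35421128 to 35507652, plus strand) lie in windows with medians of 0.25 and 0.05.

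Transcripts of the ligands themselves were close to absent. Shh had no count in any of the 6 libraries, which allows up to 0.0221 CPM in shNT and 0.0225 CPM in shARF (3 counts over each group, counting error only). Ihh was seen in 1 library (2 reads in shNT replicate 3), and Dhh in shNT replicate 2 and shARF replicate 2 (2 reads each). Of the 9 genes of ligands and their release, 3 could be tested and 2 were called, beside 56.4% of all genes. Disp1, the transporter that releases lipid-modified Hedgehog from the cell, rose from 63.6 ± 1.01 to 106 ± 1.49 CPM (0.73 on the log2 scale, edgeR adjusted p = 2.53e-06). Hhat, the acyltransferase of the ligand, was at 22.3 ± 1.08 and 24.1 ± 0.495 CPM (adjusted p = 0.102). Scube3, a secreted helper of release, fell from 6.36 ± 2.62 to 3.34 ± 0.194 CPM (-0.93, adjusted p = 0.0255). The Scube3 call was lost with any 1 of the 3 shARF libraries left out, which took the count of lower genes in that list from 1 to 0.

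Of the other surface proteins that bind Hedgehog, 4 of 6 were tested and 1 was called, beside 56.4% of all genes. Gpc3, a glypican that competes with Patched for the ligand, fell from 1.23 ± 0.0613 to 0.375 ± 0.135 CPM (-1.70, adjusted p = 0.00149, edgeR). Gpc4 (222 ± 6.65 and 232 ± 2.12 CPM), Gpc6 (29 ± 6.18 and 23.7 ± 0.45 CPM) and the endocytic receptor Lrp2 (1.7 ± 0.512 and 1.85 ± 0.599 CPM) did not pass. Without shNT replicate 2, 1 gene of this list, Gpc4, was called higher, where 0 were with all 6 libraries.

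Genes that act between Smoothened and the GLI factors mostly changed by small amounts. Of 22 tested, 7 were higher and 13 lower, beside 28.8% and 27.7% of all genes, their median was -0.17 on the log2 scale, and none reached 2-fold. Prkaca, a catalytic subunit of protein kinase A, which phosphorylates GLI2 and GLI3 toward their repressor forms, fell from 242 ± 3.84 to 152 ± 2.28 CPM (-0.67, adjusted p = 1.49e-06, edgeR). It lies on chromosome 8, where genes had a median of -0.27. Gsk3b, a kinase of the same step, rose from 215 ± 4.19 to 312 ± 12.3 CPM (0.54, adjusted p = 1.68e-05). Ulk3, a kinase that acts on GLI proteins, rose from 6.17 ± 0.303 to 10.7 ± 0.292 CPM (0.79), and Evc, a ciliary partner of Smoothened, fell from 83.8 ± 1.05 to 59.4 ± 2.69 CPM (-0.50). Kinases of the repressor-forming step thus did not move one way.

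Genes of ciliary transport, the machinery that moves these proteins in and out of the cilium, had 6 of 32 members higher and 17 lower, beside 28.8% and 27.7% of all genes, with a median of -0.22. Bbs9, of the BBSome coat, fell from 16.2 ± 0.648 to 6.36 ± 0.326 CPM (-1.35, adjusted p = 5.54e-06, edgeR), and Ift27, a small GTPase of the same route, from 30.3 ± 0.25 to 13.3 ± 1.06 CPM (-1.18, adjusted p = 1.01e-05). These were the 2 members of 32 lower by at least 2-fold, beside 7.78% of all genes. In the other direction, the intraflagellar transport genes Ift88 rose from 10.1 ± 0.586 to 17.1 ± 0.859 CPM (0.76) and Ift57 from 36.1 ± 1.19 to 48.5 ± 1.85 CPM (0.43).

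**Figure D4:**
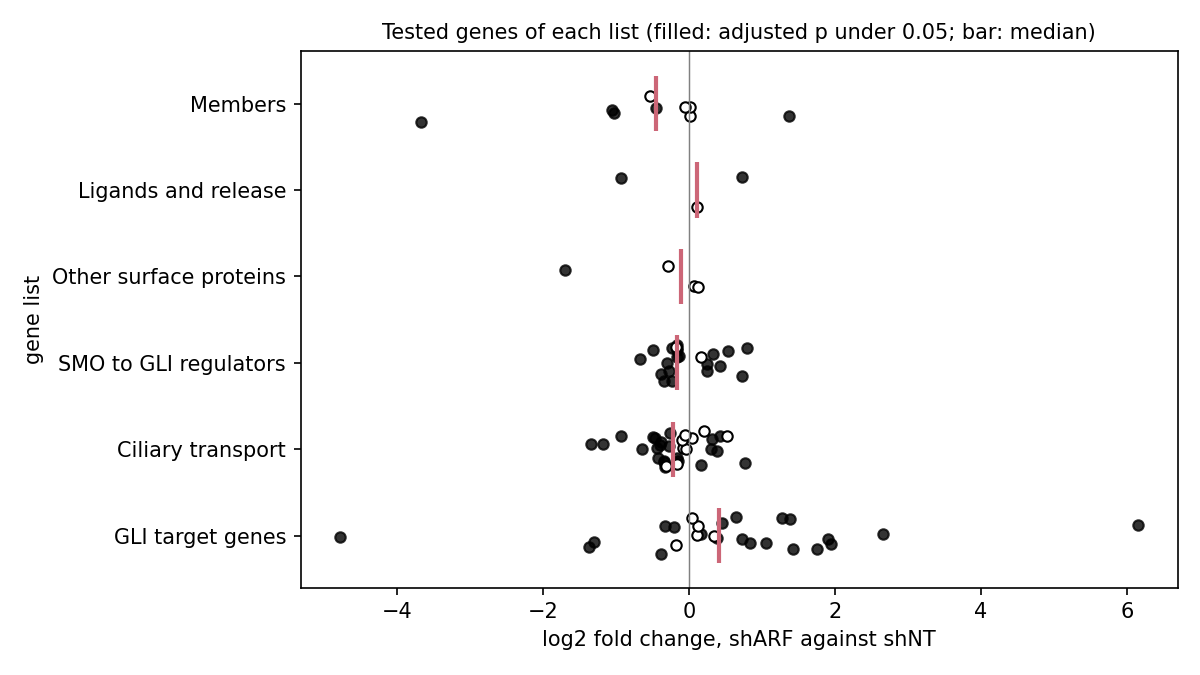
Log2 fold change of each tested gene in the 9 members and in 5 other pathway lists, with filled points for adjusted p under 0.05 and a red bar at each list's median. Medians lie between -0.45 (members) and 0.41 (GLI target genes), and the targets spread from -4.78 (Jag2) to 6.15 (Hand2).

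Genes known as GLI targets in embryonic mesenchyme did not follow Ptch1 and Hhip in 1 direction. Of 26 tested, 15 were higher and 6 lower, beside 28.8% and 27.7% of all genes. By at least 2-fold, 9 rose and 3 fell, beside 6.59% and 7.78% of all genes. The median log2 fold change was 0.41. The lower count was 3 without shNT replicate 2 and 3 without shARF replicate 1. Ccnd2, which encodes cyclin D2, rose from 503 ± 12.1 to 1323 ± 14.6 CPM (1.39, adjusted p = 1.51e-07, edgeR), and Ccnd1 (1.43), Mycn (1.75) and Igf2 (1.06) were also higher. Transcription factors of the list went both ways. Those that rose by at least 2-fold included Foxf1 from 0.669 ± 0.138 to 4.22 ± 0.649 CPM (2.66), Foxd2 from 0.753 ± 0.0904 to 2.81 ± 0.32 CPM (1.90) and Hand2 from 0.161 ± 0.171 to 11.2 ± 0.344 CPM (6.15). Hand2 was higher beside the limb-expressed Hox genes above, whose part in its level was not tested. Bmp4, a secreted ligand induced by Hedgehog in gut and limb mesenchyme, rose from 18.9 ± 0.205 to 45.5 ± 0.666 CPM (1.27), and Pthlh from 0.207 ± 0.141 to 0.817 ± 0.0913 CPM (1.94).

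The targets that fell by at least 2-fold were Jag2, a Notch ligand, from 3.98 ± 0.418 to 0.142 ± 0.1 CPM (-4.78, adjusted p = 4.03e-05, edgeR), Osr1, a zinc finger factor of intermediate and lateral mesoderm, from 77.5 ± 4.1 to 30.1 ± 0.309 CPM (-1.37), and Grem1, a BMP antagonist of the limb bud, from 183 ± 9.77 to 74.3 ± 3.14 CPM (-1.30). Foxf2, a forkhead gene of Hedgehog-responsive mesenchyme, was at 7.87 ± 0.877 and 5.99 ± 0.877 CPM (-0.39, edgeR adjusted p = 0.0405, within 0.0151 to 0.125 over the alternatives). Its call was lost without shNT replicate 2 or 3 (-0.3 and -0.43) and without shARF replicate 1 or 2 (-0.28 and -0.41). The cartilage genes Col2a1 (-3.73) and Acan (-3.56) fell in the same libraries as Hhip, and their relation to it was not tested.

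The 3 genes with the profile most like that of Ptch1 over the 6 libraries were Zfp286, Fut10 and Tcf7l1, with a root mean square difference in centred log2 CPM of 0.013, 0.018 and 0.019, among 10405 coding genes at 5 CPM or more. Among the members, Gas1 was nearest to Ptch1 (0.086) and Hhip farthest (1.283). For Gli1 the nearest were Ttc23 (0.077), Ing4 (0.085) and Foxf2 (0.09), a looser match that rests on few reads. The 0.5 CPM added before the log also shrinks changes at the low level of Gli1. The log2 fold changes of these 3 genes were -0.44, -0.46 and -0.39, against -0.54 for Gli1. These 6 libraries fall into 2 groups, so genes with a fold change of like size lie close on this measure.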

How the data were processed

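Stranded libraries depleted of ribosomal RNA were sequenced, per the labels' protocols, and the authors deposited gene counts as whole numbers. Per the submitters' processing notes the tools were HISAT2 (2.1.0), Trim Galore (0.4.1), StringTie (1.3.2), Picard (2.13.2), DESeq2 (1.34.0) and SAMtools (0.1.19), with build GRCm38. For the counting tool, its strand setting and duplicate removal, nothing is stated, so reads of genes that overlap on opposite strands may be mixed and abundant genes understated. Another 6 columns belong to no sample here and stayed unused. Index numbers in shARF column names and titles disagree, so matching used group and replicate.

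GENCODE M21 (GRCm38) gave symbols, exon lengths and coordinates for 54723 of 54752 IDs, and RefSeq (GRCm38.p6) the upstream windows. Counts were tested with edgeR 4.0.16 in R 4.3.3 (quasi-likelihood F test, TMM, filterByExpr, two-sided, Benjamini-Hochberg over 17128 genes, threshold 0.05), tested on simulated data first. No library pair within a group was close enough to be 1 library. Members, lists and naming rule were chosen with earlier results of these data known. Named genes were the members, Cdkn2a and the ligands; from each of 5 pathway lists the 4 smallest p and any called gene changed by 2-fold; and the 3 profiles (log2 of CPM + 0.5) nearest Ptch1 and Gli1. Sex-linked, Hox and cell type marker genes could be named where their levels stand beside a result, and which of them were named was chosen after their values were seen. One item that this rule names is not reported here. Alternatives were DESeq2 1.42.0, limma-voom (limma 3.58.1), other scalings and filters, a threshold of 0.01, a replicate block, 10 Mb window centring and each library left out.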

Additional observations from a re-analysis of the deposited data

How the results depend on the processing

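Hhip, Ptch1, Gas1 and Cdon were called lower and Boc higher under all 17 alternatives. Over these the log2 fold changes ran from -3.81 to -3.33 (Hhip), -1.12 to -0.85 (Ptch1), -1.15 to -0.88 (Gas1), -0.54 to -0.43 (Cdon) and 1.13 to 1.42 (Boc), and that of Cdkn2a from -1.32 to -1.09. Gli2 was called under none. The count of members called lower rose from 4 to at most 6, through Smo, Gli1 and Gli3. Gli3, at a log2 fold change of 0.01 and not called in the reported test, was called lower with library sizes alone (-0.08) and centred on windows (-0.1). Library sizes alone moved the median of all genes from -0.01 to -0.1 and the calls from 4930 higher and 4737 lower to 4023 and 5874. With no filter on low counts 33.7% of genes were called, since more genes were tested.

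Among the small lists, ligand and release genes had 2 higher in place of 1 with DESeq2 and with no filter, and 0 lower in place of 1 with at least 5 CPM in 3 libraries, with a threshold of 0.01 and centred on windows. Leaving out 1 library gave 0 to 1 lower. Other surface proteins had 0 lower with at least 5 CPM, and 1 higher and 2 lower centred on windows, with 0 to 1 higher when 1 library was left out. GLI targets had 3 lower with no filter and at 0.01, and 3 to 5 with 1 library left out. Without division by exon length, the coreceptor shares changed by -9.8 (Gas1), 4.64 (Boc) and 5.16 points (Cdon), in place of -6.32, 3.65 and 2.67. The cause of these moves was not tested where the number of genes or samples did not change.

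With the replicate number as a replicate block, 4 members were called lower and 1 higher, as without it, and 8913 genes were called in place of 9667. Deviations of same-numbered libraries correlated at -0.0904 to 0.00647, and not every library correlated best with its own number. No pairing by number was thus seen, but 3 libraries a group are too few to settle whether the numbers pair the samples. Foxf2 and Scube3 lost their calls at 0.01, Foxf2 also with no filter (adjusted p = 0.0663) and Scube3 also centred on windows (0.0628), while Gpc4 and Gpc6 were called centred on windows (0.11 and -0.56). The other named genes of the 5 pathway lists stayed on their side of the threshold wherever they were tested. Depth limits the ligands.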
